A study of Mus musculus with 12 samples.

Results

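Regulators of G protein signaling (RGS proteins) are proteins that bind the active, GTP-loaded alpha subunit of a heterotrimeric G protein and speed its hydrolysis of GTP, which shortens the signal of the receptor above it. In the nucleus accumbens (NAC), the ventral part of the striatum, they act below dopamine, opioid, muscarinic and other receptors of medium spiny neurons. These GABAergic projection neurons make up most of the neurons there. The family is divided into the small R4 proteins, the R7 proteins, which are stable only as dimers with the G protein beta subunit Gnb5, the R12 proteins and the RZ proteins, named for their action on the alpha subunit Gz. The 10 genes described here are Rgs2, Rgs4, Rgs8 and Rgs16 (R4), Rgs7 and Rgs9 (R7), Rgs10 and Rgs14 (R12), and Rgs17 and Rgs20 (RZ). Each was read through the probeset that carries only its symbol in the platform annotation, or the brightest such probeset on average over all arrays, and 10 of 10 were measured among 22180 genes in all.

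NAC was punched, core and shell together, from adult females of the outbred hsd:ICR strain, and total RNA was profiled on GeneChip Mouse Gene 2.0 ST arrays with 1 mouse on each. The lactating maternal group (NAC_maternal, called postpartum here) comprised 6 mice on day 7 after birth with litters set to 11 pups, and the age-matched virgin group (NAC_virgin) comprised 6 mice in diestrus. Postpartum mice had been housed with a male, had carried and delivered a litter and were nursing, and virgin mice had been housed with females, so that these experiences cannot be told apart. The values are PLIER intensities, a single brightness per probeset on a linear scale, normalized between arrays by the authors, with array medians of 153 to 165. The intensities were taken to log2 after raising them to a floor of 1 and compared with limma, and a gene is said to have risen or fallen where its unadjusted p was under 0.01. All 10 RGS probesets were brighter on average than the median probeset, and Rgs20, the dimmest, was brighter than 63.8% of all probesets. Since probesets differ in their response, brightness is given only as a property of a probeset, and no gene's RNA level is set against that of another gene. Precision is limited by the number of arrays.

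Upstream sequence is shown for Rgs9, the gene that fell, for Rgs7, the other R7 gene among the 10, and for Rgs2, a gene known to be induced by cAMP and neuronal activity. RefSeq promoter windows (GRCm38.p6) were found for 8 of the 10 genes, and the 250 bases before the annotated start are printed, 5′ to 3′ on the strand of the gene, with capitals for the letters CACGTG of an E-box, the clock factor motif, and TGACG, the core of a cAMP response element, on either strand. The stretches are chr11:109298182-109298431 for Rgs9, chr1:175492546-175492795 for Rgs7 and chr1:144004150-144004399 for Rgs2, all on the minus strand.
Rgs9: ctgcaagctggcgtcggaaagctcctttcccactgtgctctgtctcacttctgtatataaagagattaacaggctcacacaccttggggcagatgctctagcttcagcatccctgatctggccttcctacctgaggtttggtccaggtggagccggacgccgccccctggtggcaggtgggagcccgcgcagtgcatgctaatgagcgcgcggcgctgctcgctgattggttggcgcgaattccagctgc
Rgs7: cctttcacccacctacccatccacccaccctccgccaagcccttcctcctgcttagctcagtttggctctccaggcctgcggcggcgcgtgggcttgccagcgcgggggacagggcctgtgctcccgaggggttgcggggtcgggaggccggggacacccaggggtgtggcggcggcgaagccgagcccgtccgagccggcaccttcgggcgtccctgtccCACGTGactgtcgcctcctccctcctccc
Rgs2: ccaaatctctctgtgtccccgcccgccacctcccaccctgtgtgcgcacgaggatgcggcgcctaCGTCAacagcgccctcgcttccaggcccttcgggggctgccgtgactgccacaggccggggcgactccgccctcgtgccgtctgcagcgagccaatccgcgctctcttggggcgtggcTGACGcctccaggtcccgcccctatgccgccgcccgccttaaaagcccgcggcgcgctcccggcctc
Over the whole windows of 300 bases, which also hold the first 50 bases after the start, CACGTG was found for 1 gene, Rgs7, and in 7.15% of all 32851 windows. TGACG was found for 3 genes, Rgs2, Rgs4 and Rgs8, and in 20.8% of all windows. The full cAMP response element TGACGTCA, which contains that core on both strands, and the CArG box of serum response factor were found in none of the RGS windows, against 1.79% and 1.63% of all windows. The Rgs9 window held none of these letters. In the same assembly 6 of the 10 genes lie on chromosome 1, where Rgs8 and Rgs16 are neighbours, Rgs4 lies beside Rgs5 and Rgs2 beside Rgs13, and Rgs9 lies on chromosome 11 between Axin2 and Gna13.

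Rgs9 was the only one of the 10 genes that fell, and none rose. Rgs9 encodes an R7 protein whose long splice form is abundant in striatal neurons, where in mice it restrains signaling of the D2 dopamine receptor and the mu opioid receptor. Its intensity in virgin NAC was 4216, 3707, 3621, 3560.5, 4066 and 3996 on arrays 1 to 6, and in postpartum NAC it was 2590.5, 3631, 3583, 3325, 3059 and 3195. All 6 postpartum arrays lay under the virgin median and 4 lay under every virgin array, while postpartum arrays 2 and 3 overlapped the lower virgin arrays. The group means were 3861 ± 268 in virgin and 3230.4 ± 383 in postpartum NAC (SD, n = 6 each). On the log2 scale the difference was -0.26, a geometric mean lower by 16.7%, with a 95% interval of -0.44 to -0.08 and a standard error of 0.08 (exact permutation p = 0.0108, limma p = 0.00799). The adjusted p over all probesets was 0.415, and no probeset of the arrays passed an adjusted p under 0.05 (3685 had an unadjusted p under 0.05). The count of 1 gene called of 10 stands beside 2.8% of all genes called in either direction, 1.08% called lower and 1.72% called higher. The call was lost without any one of postpartum arrays 1, 4, 5 and 6 or virgin arrays 1, 2, 5 and 6, with limma p of 0.0111 to 0.0198 and log2 fold changes of -0.27 to -0.20. Centring the arrays on their medians ended it as well (-0.23, with a limma p of 0.0175) and so did array weights (-0.24, with a limma p of 0.0166).

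**Figure D1:**
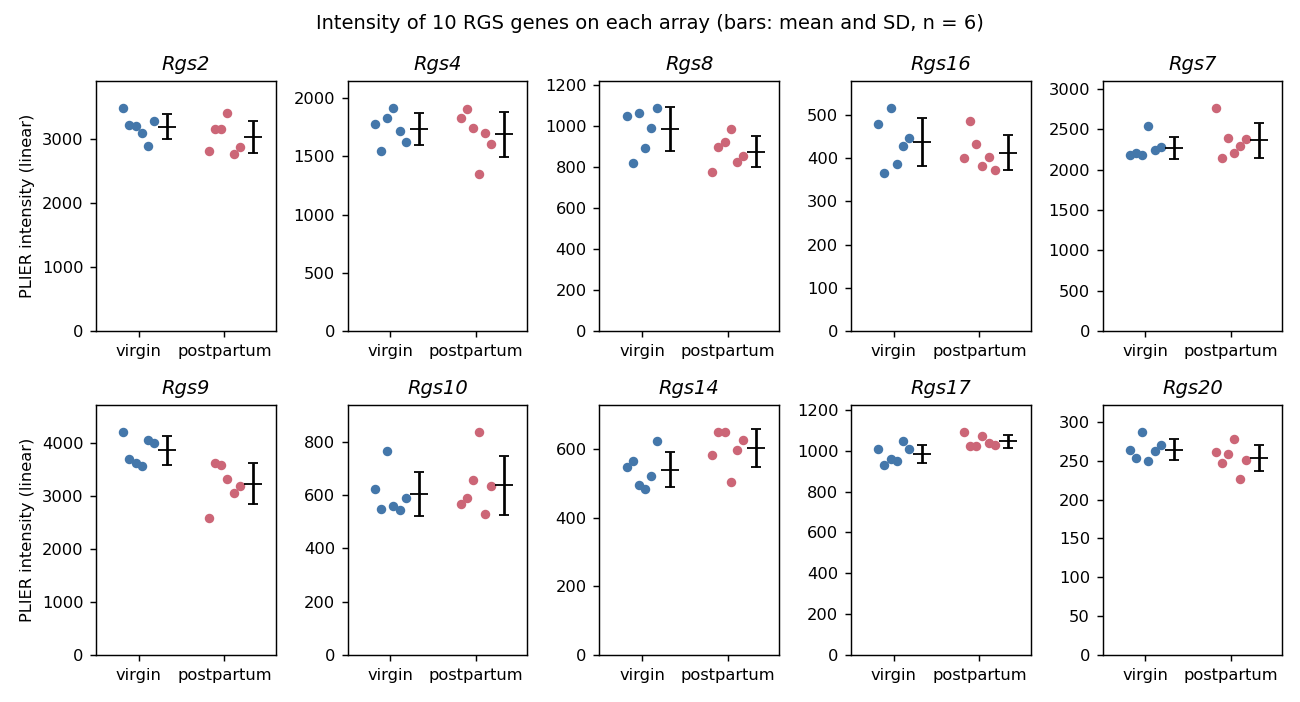
PLIER intensity (linear axis from 0) of each RGS gene on the 6 virgin and 6 postpartum arrays, points in replicate order within a group, with the mean and SD of the group beside them. Postpartum Rgs9 lies at 2590.5 to 3631 against 3560.5 to 4216 in virgin mice, and the groups of the other 9 genes overlap as well.

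Markers of medium spiny neurons had negative differences beside that of Rgs9. Of 13 listed markers 10 were measured, and all 10 had a negative log2 fold change (52.1% of all genes did), also after quantile normalization and median centring. The median of the 10 was -0.14, against -0.01 over all genes. None passed p under 0.01 by limma, beside 2.8% of all genes. At p under 0.03, 2 were called lower, beside 2.89% of all genes called lower and 6.56% in either direction. These were Penk, the enkephalin precursor, with -0.23 (limma p = 0.0143, exact permutation p = 0.0152), and Drd1, the D1 dopamine receptor, with -0.34 (limma p = 0.0155, exact permutation p = 0.0346). The summed intensity of the 10 markers ran from 26346 to 31967 in postpartum and from 29620.2 to 34431 in virgin NAC. Postpartum arrays 1 and 5, which had the 2 lowest sums, also had the 2 lowest Rgs9 intensities. The sums of postpartum arrays 2, 3 and 4, at 31743 to 31967, lay within the virgin range. When the log2 values of each array were expressed relative to the mean of these markers, a comparison chosen after seeing the data, the Rgs9 difference was -0.10 (standard error 0.07, 95% interval -0.25 to 0.06, limma p = 0.196, exact permutation p = 0.108). The marker mean itself had a difference of -0.17, so subtracting it brings the Rgs9 difference nearer 0 by construction. The markers were also listed with earlier results of these data known. The part of medium spiny neurons in the Rgs9 difference was not tested. In punched tissue, fewer cells of a type and less RNA per cell cannot be told apart.

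**Figure D2:**
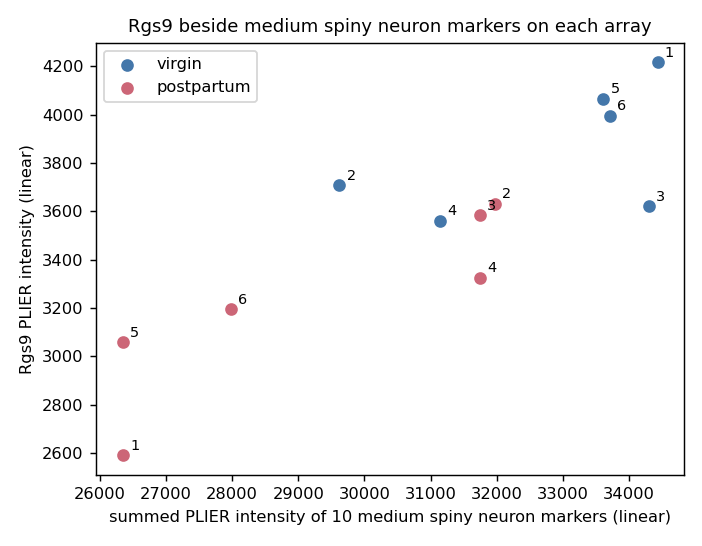
PLIER intensity of Rgs9 (vertical, linear) against the summed intensity of 10 medium spiny neuron markers, Rgs9 not among them (horizontal, linear), for each array with its replicate number. Postpartum arrays 1 and 5 lie lowest on both axes. Of the 6 virgin arrays 5 lie at marker sums of 31138 or more, and so do postpartum arrays 2, 3 and 4, at 31743 to 31967. Virgin array 3 has a sum of 34298 and an Rgs9 intensity of 3621, and virgin array 2 has 29620 and 3707.

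Rgs7, the other R7 gene among the 10, encodes a regulator of Gi and Go that is broadly expressed in neurons. Its intensity in virgin NAC ran from 2176 to 2538 (median 2227) and in postpartum NAC from 2144 to 2765 (median 2338). The groups overlapped almost fully, and the log2 fold change was 0.05 (95% interval -0.09 to 0.20, limma p = 0.428, exact permutation p = 0.444). Postpartum array 1, the lowest for Rgs9, was the highest for Rgs7. The changes of Rgs7 and Rgs9 differed by 0.32 on the log2 scale (exact permutation p = 0.0281, adjusted p = 0.173 over the 45 pairs of RGS genes). The remaining R7 genes, measured among the other RGS genes, were Rgs6 at 0.03 (limma p = 0.660, exact permutation p = 0.662) and Rgs11 at -0.11 (limma p = 0.261, exact permutation p = 0.303).

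The known partners of R7 proteins did not pass the threshold. Gnb5, the beta subunit needed for their stability, had 2963 ± 206 in postpartum and 3173 ± 135 in virgin NAC (SD, n = 6 each), or -0.10 on the log2 scale (limma p = 0.0886, exact permutation p = 0.0649). Rgs7bp, the anchor that holds R7 dimers at the plasma membrane, had 0.03 (limma p = 0.735, exact permutation p = 0.667), and this value was -0.016 without virgin array 3. Gpr158, a receptor that recruits Rgs7 to the membrane, had -0.07 (limma p = 0.175, exact permutation p = 0.108). The anchor Rgs9bp and the receptor Gpr179, known from the retina, were dim here, with means of 57.5 and 114 in postpartum NAC, and had log2 fold changes of -0.18 (limma p = 0.0900, exact permutation p = 0.106) and -0.16 (limma p = 0.0369, exact permutation p = 0.0281). Thus 0 of 5 partners were called at 0.01 by limma, 1 had an unadjusted p under 0.05, and 4 of 5 differences were negative, beside 2.8% of all genes called, 2199 of 22180 with p under 0.05 and 52.1% negative.

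The 4 R4 genes among the 10 had negative differences and none passed the threshold. Of other R4 genes measured, Rgs5 had 0.04, Rgs13 0.42 and Rgs21 0.13, while Rgs1 had -0.02, Rgs3 -0.02 and Rgs18 -0.16, and none of these passed by limma either. The Rgs13 value had a wide 95% interval of -0.21 to 1.05 (limma p = 0.171, exact permutation p = 0.212). The probesets of Rgs1, Rgs18 and Rgs21 were dim, brighter than only 17.5%, 9.32% and 9.86% of all probesets in turn. Rgs8, a regulator of Gi and Go, came nearest. Its intensity ran from 819 to 1089.5 (median 1020.2) in virgin and from 775 to 985 (median 875) in postpartum NAC. No postpartum array reached the virgin median, and 4 virgin arrays lay above every postpartum array. The means were 985 ± 107 and 876 ± 74.6 (SD, n = 6 each), giving -0.17 on the log2 scale (95% interval -0.35 to 0.01, limma p = 0.0674, exact permutation p = 0.0823). The changes of Rgs8 and Rgs9 differed by 0.10 (exact permutation p = 0.206, adjusted p = 0.356).
Rgs2, a regulator with a preference for Gq, had a virgin range of 2894 to 3488 (median 3211) and a postpartum range of 2772 to 3407 (median 3012). Postpartum array 4 alone lay above the virgin median, and the log2 fold change was -0.08 (95% interval -0.22 to 0.06, limma p = 0.240, exact permutation p = 0.214). A second, dimmer Rgs2 probeset, with group means of 110.2 and 113, gave -0.04 (limma p = 0.715, exact permutation p = 0.725). Rgs4, a regulator of Gi, Go and Gq that is common in cortex and striatum, ran from 1548 to 1917 in virgin and from 1347 to 1906 in postpartum NAC, with medians of 1751 and 1722. Its lowest value was on postpartum array 4, and its log2 fold change of -0.05 (95% interval -0.23 to 0.14, limma p = 0.604, exact permutation p = 0.636) became 0.018 without that array. Rgs16, which in mice cycles with the clock in the suprachiasmatic nucleus, ran from 366 to 516 (median 437) in virgin and from 372 to 485 (median 401) in postpartum NAC, with a log2 fold change of -0.08 (95% interval -0.28 to 0.12, limma p = 0.406, exact permutation p = 0.413). Its change and that of its chromosomal neighbour Rgs8 differed by -0.09, taken as Rgs8 minus Rgs16 (exact permutation p = 0.288, adjusted p = 0.447).

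**Figure D3:**
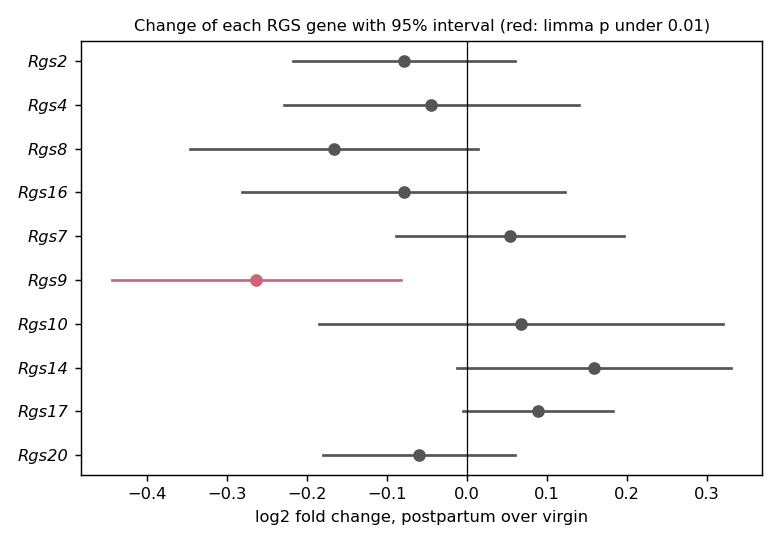
Log2 fold change of each RGS gene, postpartum over virgin, with its 95% limma interval. Rgs9 lies at -0.26 with an interval that ends at -0.08, and the intervals of the other 9 genes include 0.

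Both R12 genes among the 10 had positive differences that did not pass, and Rgs12, the third R12 gene, had 0.04 (limma p = 0.554, exact permutation p = 0.539). Rgs14, which combines an RGS domain with a GoLoco motif that binds inactive Gi and is known for limiting plasticity in hippocampal area CA2 of mice, ran from 484 to 623 (median 535) in virgin and from 505 to 651 (median 613) in postpartum NAC. Of the 6 postpartum arrays 5 lay above the virgin median and 3 lay above every virgin array, while postpartum array 4 lay above only 2 virgin arrays. The means were 539.5 ± 51.1 and 602 ± 55.2 (SD, n = 6 each), with a log2 fold change of 0.16 (95% interval -0.01 to 0.33, limma p = 0.0668, exact permutation p = 0.0736). This was the highest value among the 10 genes. The changes of Rgs9 and Rgs14 differed by -0.42 (exact permutation p = 0.00649, adjusted p = 0.0974).
Rgs10, a small regulator of Gi found in neurons and microglia, ran from 544 to 764 (median 575) in virgin and from 530.1 to 839 (median 613) in postpartum NAC. The highest values were on virgin array 3 and postpartum array 4. The log2 fold change was 0.07 (95% interval -0.18 to 0.32, limma p = 0.569, exact permutation p = 0.576), or -0.015 without postpartum array 4. On the same arrays the summed intensity of 8 cortical glutamatergic neuron markers was lowest of each group, 6971 on virgin array 3 and 7342 on postpartum array 4, against 9304 to 11965 on the other 10 arrays. The summed intensity of 11 microglia markers was 5778 on virgin array 3, the highest of a virgin range from 5171. On postpartum array 4 it was 5386, in a postpartum range of 5146 to 6445. Highest of each group on these 2 arrays were the astrocyte sums (16176 and 17088, over 7 markers), the endothelial and pericyte sums (5448 and 4909, over 9 markers) and the oligodendrocyte precursor sums (2495 and 2637, over 4 markers). The part of any of these cells in the Rgs10 values was not tested.

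Among the RZ genes, Rgs17 had the lowest SD of log2 values in postpartum NAC of the 10 genes, 0.04. Rgs17 regulates Gz and Gi and in mouse brain binds the mu opioid receptor complex. It ran from 929 to 1049 (median 984) in virgin and from 1021 to 1094 (median 1033) in postpartum NAC, so that each postpartum array was brighter than 5 of the 6 virgin arrays. The means were 984 ± 45.8 and 1046 ± 30.8 (SD, n = 6 each), with a log2 fold change of 0.09, a geometric mean higher by 6.34% (95% interval -0.0050 to 0.18, exact permutation p = 0.0238, limma p = 0.0614). Fitted without the log2 step, its limma p was 0.0148. Over all 10 alternatives that kept every array it ran from 0.0132 (median centring) to 0.130 (quantile normalization). Relative to Rgs17 on the same array, Rgs9 differed by -0.35 on the log2 scale (exact permutation p = 0.00216, the smallest that 6 arrays against 6 allow, adjusted p = 0.0974), and Rgs8 by -0.25 (exact permutation p = 0.00649, adjusted p = 0.0974).
Rgs20, a brain-enriched regulator of Gz, ran from 249.9 to 288 (median 263) in virgin and from 227 to 278 (median 255) in postpartum NAC. Its groups overlapped, and the log2 fold change was -0.06 (95% interval -0.18 to 0.06, limma p = 0.298, exact permutation p = 0.260). Relative to Rgs20, Rgs17 differed by 0.15 (exact permutation p = 0.00866, adjusted p = 0.0974). Gnaz, the gene of Gz alpha on which both act, rose from 879 ± 39.0 to 985.5 ± 51.8 (SD, n = 6 each), by 0.16 on the log2 scale with a standard error of 0.05 (exact permutation p = 0.00433, limma p = 0.00546, adjusted p = 0.394). The virgin range was 823 to 912 and the postpartum range 911 to 1057, so that 5 postpartum arrays lay above every virgin array. The Gnaz call was lost without any one of postpartum arrays 1, 5 and 6 or virgin arrays 1 and 4 (limma p of 0.0111 to 0.0140), and after quantile normalization (with a limma p of 0.0146).

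Over the 10 genes, 6 log2 fold changes were negative and 4 positive, from -0.26 to 0.16 with a median of -0.05, against a median of -0.01 over all 22180 genes. At the wider threshold of the study, p under 0.03, Rgs9 was again the only gene of the 10 called, beside 6.56% of all genes in either direction, 2.89% lower and 3.68% higher. No RGS gene had groups that did not overlap, beside 1.06% of all genes, 0.271% with postpartum lower and 0.794% with postpartum higher. For the 9 genes that did not pass, no interval reached beyond 0.35 in either direction on the log2 scale. Of the 45 pairs of RGS genes, 12 had changes that differed at an exact permutation p under 0.05, 5 of these with Rgs9, and 0 passed after adjustment over the pairs. The smallest exact permutation p that 6 arrays against 6 allow, 0.00216, gave an adjusted p of 0.0974. No pair could therefore pass on its own, and the count of 0 does not show that the changes were alike. Without postpartum array 4, 6 pairs passed (lowest adjusted p = 0.0487).

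**Figure D4:**
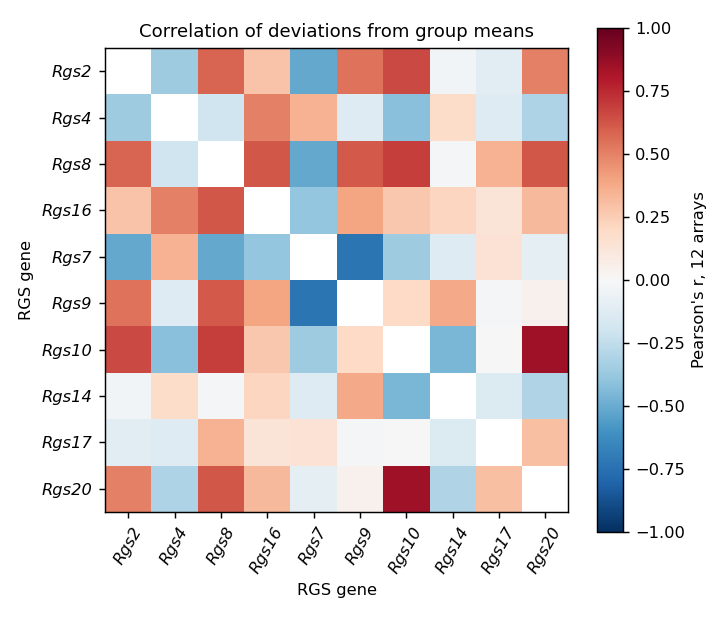
Pearson's r between the log2 deviations of each pair of RGS genes from their group means over 12 arrays, from -1 (blue) to 1 (red), with the diagonal left blank. Rgs10 and Rgs20 have the highest r, 0.85, and Rgs7 and Rgs9 the lowest, -0.73.

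The RGS genes also varied among mice of one group. Deviations from the group means were correlated over the 12 arrays for each pair, and r ran from -0.73 to 0.85 over 45 pairs. The highest was between Rgs10 and Rgs20 (Pearson's r = 0.85, permutation p = 0.00174, adjusted p = 0.0783, Spearman's rho = 0.62, permutation p = 0.0505, adjusted p = 0.446), with r = 0.83 within postpartum and 0.88 within virgin arrays, and 0.64 without the 2 arrays farthest from the median of Rgs10. The lowest was between Rgs7 and Rgs9 (r = -0.73, permutation p = 0.0224, adjusted p = 0.245, rho = -0.45, permutation p = 0.193, adjusted p = 0.579). It rested on the 2 arrays farthest from the Rgs7 median, without which r was -0.18. No pair passed after adjustment over the 45 pairs, and 6 had an unadjusted Pearson permutation p under 0.05.

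Elsewhere in the pathway, counts called stand beside 2.8% of all genes called at 0.01, 1.08% lower and 1.72% higher. Of 13 other genes with an RGS domain, 0 were called at p under 0.01 by limma. None of them had an unadjusted limma p under 0.05, beside 2199 of 22180 genes in all. Rgs19, of the RZ type, had the smallest p (0.13 on the log2 scale, limma p = 0.0721, exact permutation p = 0.0671), followed by Axin2, a negative regulator of Wnt signaling and the chromosomal neighbour of Rgs9 (0.08, limma p = 0.102, exact permutation p = 0.0498), and Rgs22 (0.22, limma p = 0.159, exact permutation p = 0.186). Of 13 G alpha subunits 1 rose, Gnaz, and none fell. Gnal, the alpha subunit that couples D1 and adenosine receptors of striatal neurons to adenylyl cyclase, had a log2 fold change of -0.15 (limma p = 0.0260, exact permutation p = 0.0152), and Gnai3, one of the Gi subunits, had 0.12 (limma p = 0.0812, exact permutation p = 0.0693). Of 12 measured G beta and gamma subunits 0 were called, with Gnb4 at -0.21 (limma p = 0.0945, exact permutation p = 0.123), Gnb3 at -0.22 (limma p = 0.0952, exact permutation p = 0.113) and Gng7, the gamma partner of Gnal in striatum, at -0.11 (limma p = 0.125, exact permutation p = 0.130). Without virgin array 3 Gnb3 had -0.31 and a limma p of 0.00997. Of 5 other G alpha modulators 0 were called, among them Gpsm1 at -0.10 (limma p = 0.136, exact permutation p = 0.136), Gpsm2 at 0.09 (limma p = 0.308, exact permutation p = 0.316) and Ric8b at -0.07 (limma p = 0.439, exact permutation p = 0.446).
Of 15 measured receptors that couple to Gi and Go, the alpha subunits most RGS proteins act on, 3 fell and none rose, beside 1.08% of all genes called lower and 1.72% called higher. Oprk1, the kappa opioid receptor, had a log2 fold change of -0.34 (limma p = 0.00459, exact permutation p = 0.0130), Chrm4, the M4 muscarinic receptor, -0.29 (limma p = 0.00506, exact permutation p = 0.0130), and Grm3, a metabotropic glutamate receptor, -0.21 (limma p = 0.00864, exact permutation p = 0.0152). Htr1a, a serotonin receptor, had the highest value of the list, 0.39 (limma p = 0.0181, exact permutation p = 0.0325), and the median of the 15 was -0.04, with 8 negative and 7 positive. Leaving out single arrays ended the call of Oprk1 for 7 arrays (postpartum 1, 4, 5 and 6, virgin 1, 5 and 6), of Chrm4 for 6 (postpartum 1, 5 and 6, virgin 1, 3 and 6), and of Grm3 for 9 (all but postpartum 2 and 4 and virgin 2), and centring the arrays on their medians ended all 3.

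**Figure D5:**
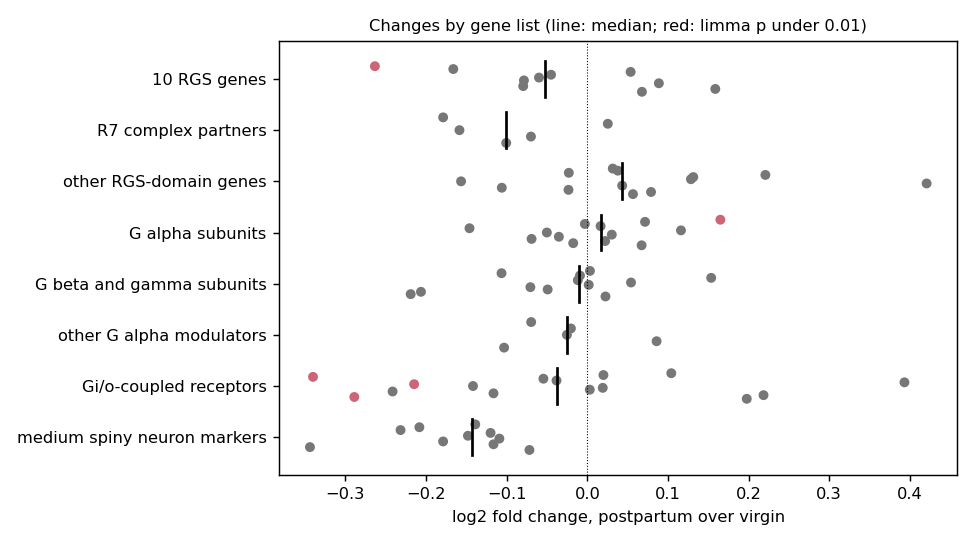
Log2 fold change, postpartum over virgin, of each measured gene of the 10 RGS genes and of 7 other lists (points, red where limma p was under 0.01), with the median of each list as a line. All 10 medium spiny neuron markers lie below 0, Gnaz is the only red point among G alpha subunits, and the 3 red receptors are Oprk1, Chrm4 and Grm3.

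Markers of other cells the punch could hold were also measured. Calls among them stand beside 2.8% of all genes called at 0.01, 1.08% lower and 1.72% higher. Slc17a6, a vesicular glutamate transporter, rose (0.41 on the log2 scale) in a list of 8 cortical glutamatergic genes with a median of 0.15, as did Calb2 (0.58) among 6 interneuron markers, Cd24a (0.59) among 6 neuroblast and ependymal markers and Ly6c1 (1.01) among 9 endothelial and pericyte markers. The Ly6c1 probeset was brighter than only 15.1% of all probesets, and 5 of these 9 markers were negative, with a median of -0.03. Opalin of oligodendrocytes (-0.47, 1 of 7 markers called) and Mpeg1 of microglia and macrophages (-0.56, 1 of 11) fell, while the microglia list had 6 negative and 5 positive members and C1qb had 0.40 (limma p = 0.0161, exact permutation p = 0.00433). None of 7 astrocyte and 4 oligodendrocyte precursor markers passed by limma, and 0 measured markers of any list were under an intensity of 1 on all arrays. Without single arrays the calls of Slc17a6, Opalin and Mpeg1 were lost for 9, 10 and 8 of the 12 arrays in turn, that of Opalin also with median centring, and that of Mpeg1 with median centring, quantile normalization and array weights. The part of these cells, or of medium spiny neurons, in the RGS values was not tested. Of the RGS genes, only Rgs9 was expressed relative to medium spiny neuron markers, as given above.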

How the data were processed

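RNA of NAC from 12 mice was measured on 12 arrays, 1 mouse per array, in 2 groups of 6 given by the submitters' labels. The authors summarised and normalized probes with PLIER (Expression Console in the methods, Affymetrix Power Tools 1.12.0 in the submitters' processing notes) and deposited 1 linear intensity per probeset and array, for 41345 probesets. The depth of an array has no equivalent of a read count, so precision rests on the number of arrays. Values under 1 were set to 1. The log2 intensities of all probesets were then fitted in R 4.3.3 by limma 3.58.1, using lmFit and eBayes with no covariate, and p was adjusted after Benjamini and Hochberg across the whole array. The annotation gave a single gene for 23521 probesets. The thresholds, p under 0.01 and under 0.03, are those of the study, whose methods name limma but not the scale. Exact permutation tests were two-sided and enumerated every way to divide the arrays 6 against 6. For pairs of genes, the log2 difference on each array was tested in this way, and correlations used 100000 resamples within groups. The fit was tested on simulated data. Labels name biological replicates, and the methods of the study give 6 mice per group, so p-values set group differences against the spread between animals.

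The 10 genes and all gene lists were chosen with earlier results of these data known. By rule the text names all 10 RGS genes, all R7 partners, up to 3 genes of smallest p per other pathway list, and marker genes with p under 0.01. Penk, Drd1, C1qb and Htr1a were named after their values were seen, and Rgs1, Rgs3, Rgs5, Rgs6, Rgs11, Rgs12, Rgs13, Rgs18, Rgs21 and Gna13 for their subfamily or position. Alternatives were quantile normalization, median centring, linear intensities, log2 of the intensity plus 16, only probesets above the median, array weights, a trend of variance with intensity, a robust eBayes fit, a block for the replicate number, the mean of all probesets of a gene, and each array left out. Values relative to medium spiny neuron markers were added after seeing the data. Markers with no single-gene probeset were not analysed here.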

Additional observations from a re-analysis of the deposited data

Results flagged for a closer look

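One array stood far from the other 5 of its group in 6 of 72 groups examined (36 genes, each in both groups), where chance gives about 5%. Among the RGS genes this was Rgs7 on virgin array 4, whose intensity of 2538 lay above the other virgin arrays at 2176 to 2278. Without it the Rgs7 log2 fold change was 0.09 in place of 0.05. Rgs7bp on virgin array 3 had 3441 against 4019 to 4204 on the others, Gpr179 on postpartum array 4 had 96.2 against 114 to 121, and Gnai3 on virgin array 3 had 571 against 462 to 494. Slc17a6 had 298 on virgin array 3 against 175 to 211, and without it the Slc17a6 log2 fold change was 0.51 in place of 0.41. Ly6c1 had 13.9 on virgin array 6 against 33.1 to 51.8, and without it the Ly6c1 log2 fold change was 0.76 in place of 1.01.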

How the results depend on the processing

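The direction of Rgs9 held under all 23 alternatives and its side of 0.01 under 11. For Rgs2, Rgs7, Rgs8, Rgs14, Rgs16, Rgs17 and Rgs20 all 22 alternatives left direction and call alike. Rgs4 turned to 0.018 (range -0.082 to 0.018 with single arrays left out) and Rgs10 to -0.015 (-0.015 to 0.137) without postpartum array 4, and Rgs7bp to -0.016 (-0.016 to 0.077) without virgin array 3. The count of RGS genes at p under 0.01, 1 in the comparison as reported, was 0 after median centring, with array weights and with the replicate block, and ranged from 0 to 1 when single arrays were left out. At p under 0.03 the count, 1 as reported, was 2 after quantile normalization (Rgs8 added), after median centring and on linear intensities (Rgs17 added), and with array weights (Rgs14 added), 0 with the replicate block, and 1 to 2 with single arrays left out. Pairs whose changes differed after adjustment numbered 0 as reported and 0 to 6 with single arrays left out. Replicate numbers did not pair the arrays: same-numbered arrays had correlations of deviations from -0.21 to 0.20, and 2 of 6 postpartum arrays and 0 of 6 virgin arrays correlated best with their own number. With the replicate block the limma p of Rgs9 was 0.0373 and of Gnaz 0.0143, and of the genes the text names as called by limma only Ly6c1 stayed under 0.01. The causes were not tested. Median centring moved the median of all genes by 0.03 on the log2 scale, and array signals of dim genes such as Rgs9bp limit what can be read from them.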
